A study of Homo sapiens with 2 samples.

Results

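Canonical Wnt target genes are genes whose transcription is switched on when beta-catenin enters the nucleus and binds TCF and LEF factors. The set described here holds 10 of them, chosen by name and not by their values: MYC, CCND1, EPHB2, EPHB3, RNF43, ZNRF3, TNFRSF19, NKD1, TCF7 and LEF1. All 10 were matched by Entrez ID among the 16399 genes listed, and 9 of the 10 counted as expressed, that is, reached 1 CPM in either library, where CPM is the count per 1000000 counts of that library. LEF1 was not.

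The values came from RNA sequencing of A549, an established human lung adenocarcinoma line, in a study of genes downstream of plakophilin 2 (PKP2), a desmosomal plaque protein with armadillo repeats. One group carried the vector and the other overexpressed PKP2 carrying an SFB tag, a purification tag made of S-protein, FLAG and streptavidin-binding peptides. Each group was 1 library from cells at passage 5 grown in DMEM with 10% FBS, so no difference below has a replicate check and none was tested. Whether the PKP2 cells were a pool or a clone is not given in the sources used here.

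In the absence of a Wnt signal, a complex built on APC and AXIN, with the kinases GSK3 and CK1, marks beta-catenin for destruction. When a Wnt ligand engages a Frizzled receptor and LRP5 or LRP6, the complex is inhibited, beta-catenin accumulates, and target genes are transcribed. Several targets feed back on the pathway: RNF43 and ZNRF3 remove Frizzled receptors from the cell surface, R-spondins acting through LGR receptors counter them, and NKD1 binds Dishevelled. Target genes differ from tissue to tissue, and MYC and CCND1 also respond to many other signals.

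The vector library held 16996976 estimated counts and the PKP2 library 16808842, and 12820 genes were expressed. PKP2 had 464 counts with the vector and 4505 with PKP2, a CPM ratio of 9.82 with a 95% counting interval of 8.92 to 10.8. These intervals, exact Clopper-Pearson intervals of the ratio of CPM, cover counting error only. The 6 epithelial markers looked up, led by the keratins KRT8 and KRT18, summed to 11649 CPM with the vector and 11936 CPM with PKP2, although EPCAM was at 1.47 and 1.37 CPM. Of 6 alveolar markers 4 had a value and summed to 92.4 and 84.2 CPM, nearly all from ABCA3, while the lineage factor NKX2-1 had 2 counts and 1 count. Markers of other cell types were low: the sums with the vector and with PKP2 were 7.24 and 6.604 CPM for 2 of 5 immune genes, 0.235 and 0.892 CPM for 3 of 4 endothelial genes and 9.53 and 11.7 CPM for 4 of 6 fibroblast genes. Their part in the differences below was not tested. Ratios followed transcript length and GC content across expressed genes: the median log2 ratio was 0.14 among the fifth of genes with the shortest transcripts and -0.16 among the fifth with the longest, and it was -0.12 in the fifth of lowest GC content and 0.10 in that of the highest. Values with this trend removed are therefore given beside the measured ones. The longest transcripts of 8 of the 10 Wnt targets exceed the median of expressed genes, 3725 nucleotides.

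Promoter sequence was looked up for the Wnt targets, since TCF and LEF factors recognise a short motif. RefSeq windows on GRCh38.p14, running from 250 bases before to 50 bases after a transcription start, were found for 6 of the 10 genes (EPHB2, EPHB3, LEF1, TCF7, TNFRSF19 and RNF43), with 10 windows in all. The core letters CTTTGA, searched on both strands, occurred in 0 of these 10 windows and in 12.9% of 35116 windows of all genes. The longer form CTTTGAT, which contains the core, occurred in 0 of the 10 and in 2.62% of all windows. The EPHB2 windows, which start at 22710588 and 22710589, overlap almost fully, so the 10 are not all separate sequences. The absence of a match says only that these letters are not in these windows, and other forms of the motif were not searched.

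The first 180 bases of 4 of these windows, all outside annotated exons of their genes, are shown 5′ to 3′ on the strand of the gene, with CG dinucleotides in capitals. EPHB2 and EPHB3 are shown because these paralogs had the most unequal levels of any related pair that was expressed, and TNFRSF19 and RNF43 because both were lower in the PKP2 library.
EPHB2, plus strand, chr1:22710588-22710767: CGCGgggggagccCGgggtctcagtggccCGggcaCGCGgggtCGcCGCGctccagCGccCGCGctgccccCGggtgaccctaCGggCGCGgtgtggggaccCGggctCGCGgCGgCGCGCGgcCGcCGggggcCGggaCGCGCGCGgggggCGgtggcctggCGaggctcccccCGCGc
EPHB3, plus strand, chr3:184561535-184561714: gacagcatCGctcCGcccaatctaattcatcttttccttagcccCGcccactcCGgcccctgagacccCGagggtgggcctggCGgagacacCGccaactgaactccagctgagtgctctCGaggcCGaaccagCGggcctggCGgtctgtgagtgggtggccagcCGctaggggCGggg
TNFRSF19, plus strand, chr13:23570162-23570341: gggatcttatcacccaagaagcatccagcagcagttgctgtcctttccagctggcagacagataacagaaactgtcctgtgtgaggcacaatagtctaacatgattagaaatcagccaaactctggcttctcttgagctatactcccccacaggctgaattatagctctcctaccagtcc
RNF43, minus strand, chr17:58417605-58417784: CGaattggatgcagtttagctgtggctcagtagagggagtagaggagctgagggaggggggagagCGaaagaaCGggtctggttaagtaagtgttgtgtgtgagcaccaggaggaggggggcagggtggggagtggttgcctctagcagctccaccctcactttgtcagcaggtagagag
The EPHB2 stretch held 34 CG dinucleotides and the EPHB3 stretch 13, against a median of 7 in the same stretch of all 35116 windows and an upper quartile of 15. The TNFRSF19 stretch held 0 and the RNF43 stretch 3. Both genes have a second listed start, whose stretch held 14 for TNFRSF19 (chr13:23579110-23579289) and 0 for RNF43 (chr17:58402792-58402971), so these counts depend on the start chosen. Gene-level counts do not tell which start was used.

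As a set, the Wnt targets did not lean far to either side. In bulk RNA, fewer cells expressing a gene and less RNA per cell cannot be told apart. Of the 9 expressed genes, 4 were higher and 5 lower in the PKP2 library, and the CPM ratios ran from 0.728 to 1.201. The median log2 ratio was -0.11, against -0.0016 over all expressed genes, and it was -0.08 once the length and GC trend was taken out. By a rule of at least 1.2-fold, 1 gene (TCF7) was higher, where 11% of all expressed genes were, and 1 gene (TNFRSF19) was lower, where 13.1% were. These shares, 11.1% of the 9 in each direction, are close to the background. With the trend removed 2 were higher (EPHB2 and TCF7) and 2 lower (MYC and TNFRSF19), where 8.67% and 8.18% of all expressed genes were. At 1.1-fold 3 were higher and 4 lower (background 25.1% and 26.9%), and at 1.5-fold 0 in each direction (2.15% and 1.83%). EPHB2 lay just inside the threshold with a ratio of 1.19 and TCF7 just past it with 1.201.

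The counting interval lay above 1 for EPHB2 and TCF7, 2 of the 9 genes (22.2%), against 16.3% of all expressed genes. It lay below 1 for MYC, CCND1, TNFRSF19 and RNF43, 4 of the 9 (44.4%), against 19.8%. With 99% intervals EPHB2 was above 1 (background 10.8%) and MYC, CCND1 and RNF43 were below (14.8%). Deeply counted genes have narrow intervals, and 4 of the Wnt targets had a mean of 50 CPM or more. Among all 4431 genes of that level, 26.1% had an interval above 1 and 32.4% below 1. For the 4 targets the counts were 1 above (EPHB2) and 3 below (MYC, CCND1 and RNF43). The level of 50 CPM was chosen after the values were seen.

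**Figure D1:**
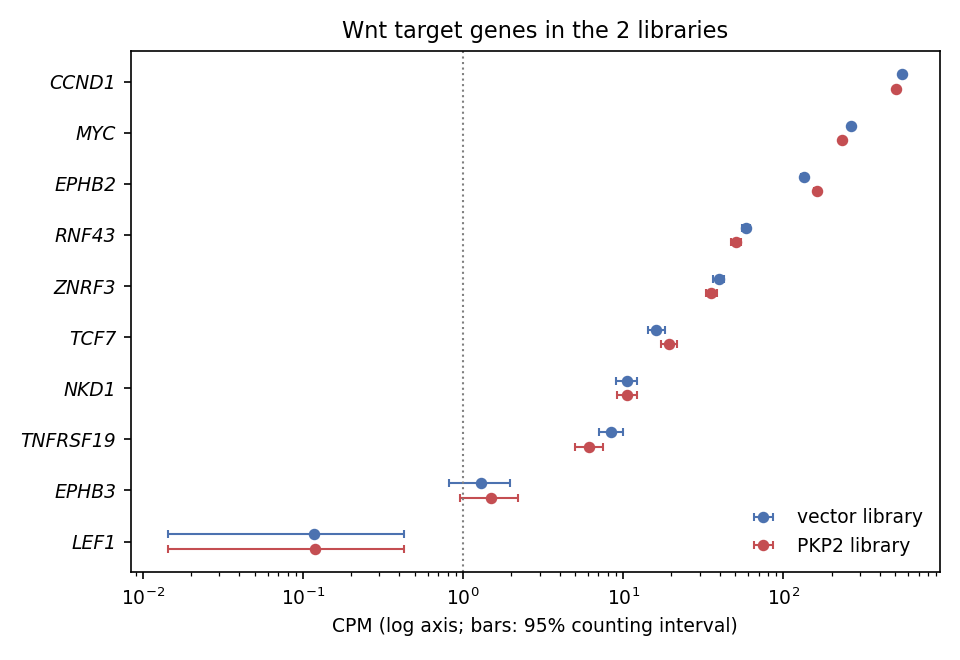
CPM of the 10 Wnt target genes (log axis) in the vector and PKP2 libraries, 1 library each, with exact 95% Poisson counting intervals as bars and 1 CPM as a dotted line. The genes run from CCND1 at 548 and 509 CPM down to LEF1 with 2 counts in each library, and with the vector NKD1 and TNFRSF19 lie nearest to each other on this axis, at 10.5 and 8.41 CPM.

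Levels between genes were compared as CPM per kilobase of the longest GENCODE transcript. CCND1 was highest, at 127 CPM per kilobase with the vector and 118 with PKP2, followed by MYC at 112 and 98.3. CCND1 was above MYC in each library, but the lower limit of CCND1 with PKP2 (115.6) was under the upper limit of MYC with the vector (115.8). EPHB2 (12.5 and 14.9), RNF43 (10.5 and 9.08), ZNRF3 (5.75 and 5.19), TCF7 (3.01 and 3.62), TNFRSF19 (1.97 and 1.43), NKD1 (0.616 and 0.619), EPHB3 (0.306 and 0.351) and LEF1 (0.0338 and 0.0342) followed in that order, in CPM per kilobase in the vector and PKP2 libraries. From MYC down, each gene was separated from the next beyond the counting intervals of both libraries. With the median length of the basic protein-coding transcripts, an alternative added after the data were seen, the order of the 10 genes was kept. RNF43 and ZNRF3, at means of 13.8 and 13.0 CPM per kilobase, were then not separated, nor were EPHB3 and LEF1, whereas CCND1 and MYC were. The 10 genes summed to 1083 CPM with the vector and 1026 CPM with PKP2, of which MYC and CCND1 held 75.1% and 72.2%.

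Among the transcription factors, MYC was lower and TCF7 higher in the PKP2 library. MYC (Entrez ID 4609), a growth-promoting bHLH factor and a classical beta-catenin target in colon cancer cells, had 4523 counts with the vector and 3909 with PKP2, or 266 and 233 CPM. It was 1.14-fold lower (counting interval 1.096 to 1.19), and 37.0% of expressed genes had a log2 ratio at least as large in size. Its transcript is short, at 2366 nucleotides, and short transcripts tended to the higher side. With the length and GC trend removed its log2 ratio went from -0.19 to -0.30, which is past the 1.2-fold rule.

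TCF7 (Entrez ID 6932, chromosome 5, 134114711 to 134151865, plus strand, GRCh38) encodes TCF1, itself a DNA-binding partner of beta-catenin whose short forms can repress targets. It had 273.54 estimated counts with the vector and 324.83 with PKP2, or 16.1 and 19.3 CPM, a ratio of 1.201 with an interval of 1.02 to 1.41. Its log2 ratio was 0.26, and 0.28 with the trend removed. A fractional gene count can arise when reads are divided between genes, so the value is uncertain. The neighbour SKP1 overlaps TCF7 on the opposite strand. SKP1 itself had a ratio of 0.977 (0.933 to 1.02) from 3772 and 3644 counts, far more than those of TCF7. The counts of SKP1 held no fraction, and whether it shared reads with TCF7 was not tested. Overlap was looked up for whole gene spans, not for exons. The strand setting of the counting is not given in the sources used here. It is therefore not known whether reads of overlapping genes were told apart.

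LEF1 (Entrez ID 51176, chromosome 4, 108047545 to 108168956, minus strand), the other TCF and LEF family gene of the set, had 2 counts in each library. That is 0.118 CPM with the vector and 0.119 CPM with PKP2, with upper counting limits of 0.425 and 0.430 CPM. Both are under the floor of 3 counts, so no fold is given and a difference was not detectable at this depth. Of the family genes outside the set, TCF7L2 was at 38.6 and 39.4 CPM and TCF7L1 at 5.18 and 7.44 CPM in the vector and PKP2 libraries. TCF7L1, often a repressor of Wnt targets, had a ratio of 1.44 with an interval of 1.08 to 1.91, a log2 ratio of 0.52 and of 0.42 with the trend removed.

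CCND1 (Entrez ID 595, chromosome 11, 69641087 to 69654474, plus strand) encodes cyclin D1, which drives CDK4 and CDK6 at entry into the cell cycle. It had 9310 counts with the vector and 8550 with PKP2, or 548 and 509 CPM, the highest of the set in both. It was 1.08-fold lower (1.05 to 1.11). Although the interval is the narrowest of the set, the difference was small: 61.6% of expressed genes had one at least as large in size. Its log2 ratio was -0.11, and -0.09 with the trend removed. LTO1, which overlaps CCND1 on the opposite strand, had a ratio of 1.18 (0.983 to 1.42) from 218 and 255 counts, far fewer than those of CCND1.

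The receptor genes differed among themselves. EPHB2 (Entrez ID 2048, chromosome 1, 22710839 to 22921500, plus strand) and EPHB3 (Entrez ID 2049, chromosome 3, 184561784 to 184582409, plus strand) encode Eph receptor tyrosine kinases that position cells along the intestinal crypt by binding B-type ephrins. EPHB2 had 2296 counts with the vector and 2710 with PKP2, or 135 and 161 CPM, a ratio of 1.19 with an interval of 1.13 to 1.26. It had the largest count among the 4 targets that were higher, and 25.2% of expressed genes had a log2 ratio at least as large in size. Its longest transcript has 10816 nucleotides, and long transcripts tended to the lower side. The log2 ratio was 0.26, and 0.37 with the trend removed, so EPHB2 then passed the 1.2-fold rule. That call may depend on the transcript length taken. The basic protein-coding transcripts of EPHB2 have a median of 3677 nucleotides, and the trend was not removed with that length.

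EPHB3 had 22 counts with the vector and 25 with PKP2, or 1.29 and 1.49 CPM. Its ratio of 1.15 had an interval of 0.622 to 2.14, so a difference of the size seen for EPHB2 was not detectable for EPHB3 at this depth. Per kilobase of the longest transcript EPHB2 was 40.9-fold above EPHB3 in the vector library and 42.5-fold in the PKP2 library. With the median coding length the mean levels were 122.7-fold apart, so the size of that gap depends on the transcript length taken and its direction does not.

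TNFRSF19 (Entrez ID 55504, chromosome 13, 23570370 to 23676104, plus strand) encodes TROY, a receptor of the TNF receptor family that marks LGR5-positive stem cells in the intestine. It had 143 counts with the vector and 103 with PKP2, or 8.41 and 6.13 CPM. It was 1.37-fold lower (1.06 to 1.79), and had the log2 ratio of largest size among the 9 expressed targets, -0.46, or -0.39 with the trend removed. Of all expressed genes 7.29% had one at least as large in size. LGR5 itself had 8 and 4 counts in the vector and PKP2 libraries.

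**Figure D2:**
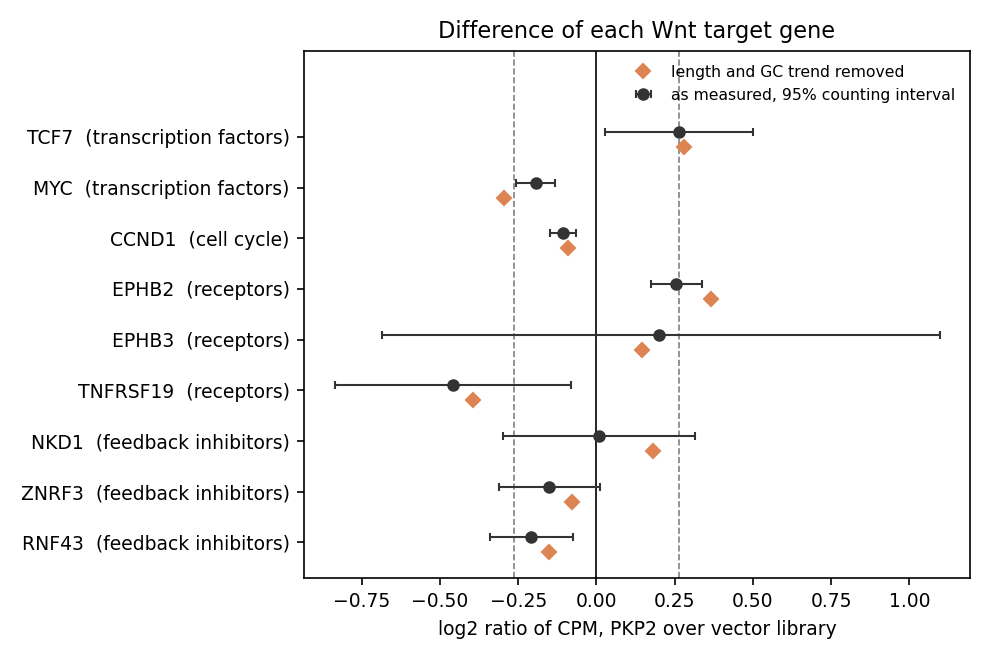
Log2 ratio of CPM, PKP2 over vector library, for the 9 expressed Wnt target genes grouped by role, with 95% counting intervals (black) and the value with the length and GC trend removed (orange diamonds). Dashed lines mark 1.2-fold. TCF7 and EPHB2 lie to the right with intervals clear of 0, and MYC, CCND1, RNF43 and TNFRSF19 lie to the left. EPHB2 and MYC move outward past the dashed lines when the trend is removed.

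The feedback inhibitors were lower or level. RNF43 (Entrez ID 54894, chromosome 17, 58352500 to 58417595, minus strand), a transmembrane E3 ubiquitin ligase that clears Frizzled receptors, had 994 counts with the vector and 851 with PKP2, or 58.5 and 50.6 CPM. It was 1.16-fold lower (1.05 to 1.27), with a log2 ratio of -0.21 and of -0.15 with the trend removed. SUPT4H1, which overlaps the RNF43 locus on the same strand, had a ratio of 1.07 (1.00 to 1.13) from 1902 and 2004 counts, more than those of RNF43.

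ZNRF3 (Entrez ID 84133, chromosome 22, 28883592 to 29057487, plus strand) is the paralog of RNF43 with the same activity on Frizzled. It had 670.09 estimated counts with the vector and 597.15 with PKP2, or 39.4 and 35.5 CPM. The ratio was 0.901 with an interval of 0.806 to 1.01, which includes 1, and the fractional counts make it uncertain. Its interval also includes the ratio of RNF43, 0.866, so the paralogs were not told apart in their difference between the libraries. The log2 ratio of ZNRF3 was -0.15, and -0.08 with the trend removed.

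NKD1 (Entrez ID 85407, chromosome 16, 50548330 to 50649249, plus strand) encodes naked cuticle 1, a Dishevelled-binding antagonist. It had 179 counts with the vector and 178 with PKP2, or 10.5 and 10.6 CPM, a ratio of 1.01 with an interval of 0.813 to 1.24. It had the ratio nearest to 1 in the set, and 97.1% of expressed genes had a log2 ratio at least as large in size. Its longest transcript has 17105 nucleotides, the longest of the set, and with the trend removed its log2 ratio was 0.18 instead of 0.01. AXIN2, the feedback target most often used as a readout of the pathway, was at 23.1 and 20.7 CPM in the vector and PKP2 libraries, with a ratio of 0.898 and an interval of 0.775 to 1.04.

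**Figure D3:**
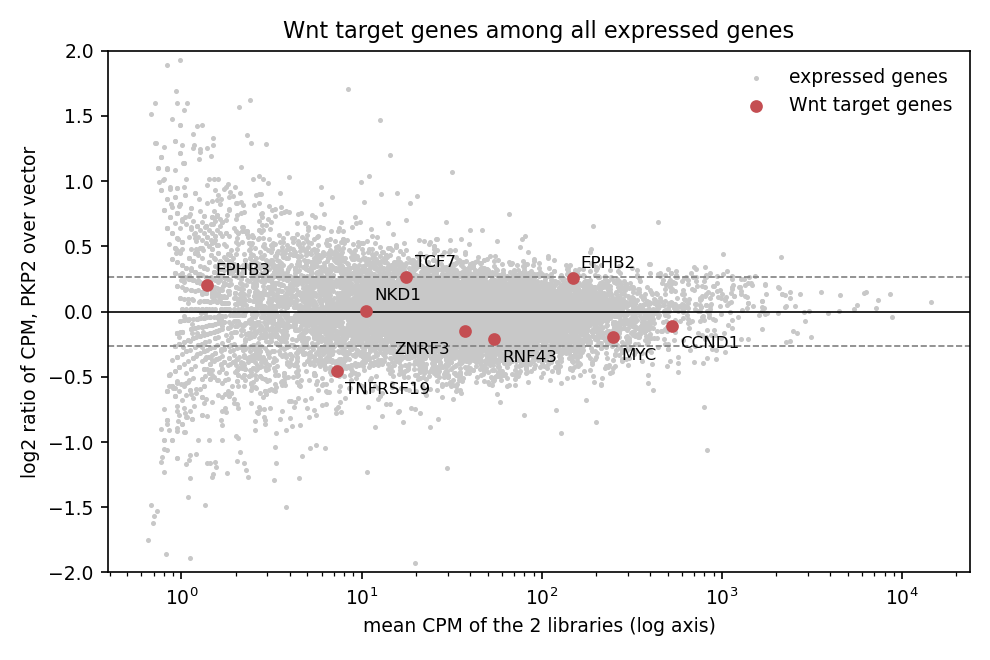
Log2 ratio of CPM, PKP2 over vector library, against mean CPM (log axis) for expressed genes (grey) and the 9 expressed Wnt target genes (red). Dashed lines mark 1.2-fold, and 18 genes beyond a log2 ratio of 2 in size are outside the axis. The Wnt targets lie within the cloud of other genes of their level.

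The remaining genes of the pathway were read from lists taken from general knowledge, with the 11% and 13.1% of all expressed genes that were at least 1.2-fold higher and lower as background, or 8.67% and 8.18% where the length and GC trend was removed. AXIN2, DKK1, LGR5, NOTUM and APCDD1 are in more than 1 of these lists. Of 19 expressed genes in a list of other Wnt targets, 2 were at least 1.2-fold higher and 2 lower, and the median log2 ratio was 0.02. With the trend removed these were 2, 3 and -0.02. In that list the transcription factor SOX4 had a ratio of 1.14 (1.06 to 1.24), and the drug efflux pump ABCB1 was 1.31-fold lower (1.08 to 1.60), with log2 ratios of 0.26 and -0.31 when the trend was removed. Beta-catenin itself, CTNNB1, had a ratio of 0.979 (0.938 to 1.02). Of its 19 expressed list members, nuclear partners included, 2 were higher and 2 lower, with a median of -0.02. With the trend removed 2 were higher and 1 lower, with a median of 0.0029. The coactivator EP300 was 1.25-fold lower (1.17 to 1.34), but its log2 ratio of -0.32 was -0.19 with the trend removed, no longer past the 1.2-fold rule.

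In the receptor list and in the destruction complex list, somewhat more genes were lower than higher. In that order, 8 of 13 and 12 of 19 expressed genes had a log2 ratio below 0, and 8 and 13 with the trend removed. The median over all expressed genes was -0.0016, and -0.011 with the trend removed, so all expressed genes split almost evenly around 0. The longest transcripts of the expressed genes in these lists had medians of 5159 and 6094 nucleotides, against 3725 for all expressed genes. Of 13 expressed Wnt and R-spondin receptors, 0 were at least 1.2-fold higher and 4 lower, with a median log2 ratio of -0.20. With the trend removed 0 were higher and 3 lower (background 8.67% and 8.18%), and the median was -0.13. The R-spondin receptor LGR6 was 1.47-fold lower (1.29 to 1.66) and the Frizzled gene FZD8 1.54-fold lower (1.16 to 2.04), with log2 ratios of -0.62 and -0.69 when the trend was removed. The list of Dishevelled and the destruction complex is a mixed one and also holds TNKS2 and USP34, both among its lower genes. Of its 19 expressed genes, 0 were higher and 7 lower, with a median of -0.16. The 7 include APC2, which had 35 and 25 counts and a ratio of 0.722 with an interval of 0.414 to 1.24. With the trend removed 0 were higher and 5 lower, against the same background, and the median was -0.11. The 5 include APC2 and also NKD2, whose measured ratio of 0.922, from 68 and 62 counts, had an interval of 0.643 to 1.32. APC, the scaffold of the complex, was 1.49-fold lower (1.32 to 1.68), and FBXW11, a ubiquitin ligase subunit that recognises marked beta-catenin, 1.33-fold lower (1.23 to 1.45). APC has a longest transcript of 10701 nucleotides, and its log2 ratio of -0.57 was -0.35 with the trend removed, while FBXW11 went from -0.42 to -0.35.

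Ligands differed among themselves, and the ligand median was below 0, although WNT7B, the ligand with the highest level, was close to level between the libraries. Of 19 Wnt ligand genes 15 had a value and 6 were expressed, 2 of them at least 1.2-fold higher and 2 lower, with a median log2 ratio of -0.08. On the lower side was WNT4, from 21 and 13 counts (0.288 to 1.31), which reached 1 CPM only with the vector. On the higher side was WNT10B, from 37 and 54 counts (0.954 to 2.31). Both intervals include 1. Once the trend was removed, 1 was higher and 3 lower, and the median was -0.14. WNT7B was at 274.6 CPM with the vector and 289.2 CPM with PKP2, far above WNT3, the next ligand, with a mean of 12.1 CPM. The ratio of WNT7B was 1.05 (1.01 to 1.097), and its fractional counts make it uncertain. Its log2 ratio of 0.07 was 0.0054 with the trend removed. WNT5A, from 144 counts with the vector and 69 with PKP2, was 2.06-fold lower (1.54 to 2.79). Its log2 ratio was -1.05, and -0.91 with the trend removed. WNT3, a canonical ligand, had a ratio of 1.21 (0.989 to 1.47), and its log2 ratio of 0.27 was 0.24 with the trend removed, under the 1.2-fold rule. The secretion factors PORCN and WLS had ratios of 1.16 (0.947 to 1.42) and 1.095 (0.953 to 1.26), and log2 ratios of 0.07 and 0.09 with the trend removed. RSPO3, the 1 R-spondin that was expressed, had a ratio of 1.09 (1.01 to 1.17), a log2 ratio of 0.12 with and without the trend. Of 7 expressed secreted or receptor-level inhibitors, 2 were higher and 0 lower, with a median of 0.21. The 2 were SFRP5, from 27 and 35 counts (0.771 to 2.25), and KREMEN2, from 17 and 23 counts (0.700 to 2.73). The intervals of both include 1. With the trend removed, 2 inhibitors were again higher and 0 lower, and the median was 0.21. However, SFRP5 (picked after its value was seen) was past the rule only before the removal and KREMEN1 only after it. Among them SFRP1 had a ratio of 1.15 (1.06 to 1.26) and KREMEN1, with a fractional count, of 1.18 (0.982 to 1.43), with log2 ratios of 0.23 and 0.28 when the trend was removed.

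**Figure D4:**
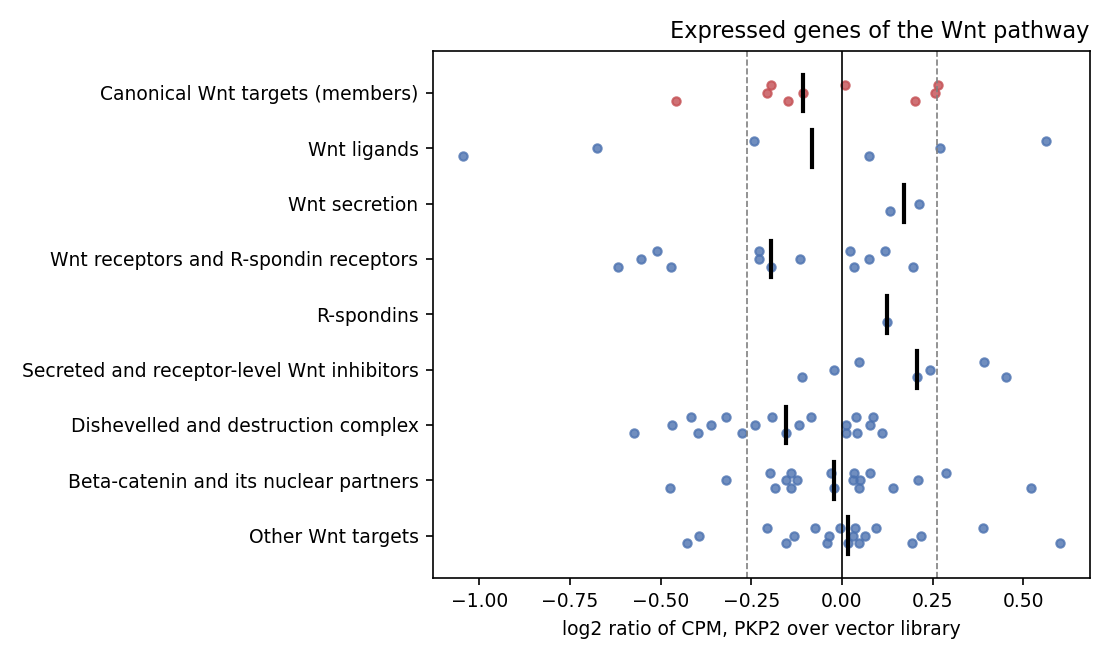
Log2 ratio of CPM, PKP2 over vector library, for each expressed gene (points) of the 9 canonical Wnt targets (red) and of lists of other pathway genes (blue), with each list's median as a black bar and 1.2-fold as dashed lines. The median of the canonical targets lies at -0.11, those of the receptor list and of the destruction complex list at -0.20 and -0.16, and that of other Wnt targets at 0.02.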

How the data were processed

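Per the labels' protocols, total RNA was taken up in Trizol and made into libraries with an Illumina TruSeq kit. The authors deposited 1 file per library with an estimated count per gene, listed by Entrez ID and not set to a common depth. Per the submitters' processing notes, the build was GRCh38.p12 and the tools were RSEM 1.2.12, HISAT2 2.0.4 and Bowtie2. Not given in the sources used here are the annotation, filters, strand and layout. Fractional counts occurred for 2403 genes with the vector and 2491 with PKP2.

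From the counts, CPM and its ratio, PKP2 over vector, were computed with Python 3.11.15 and scipy 1.17.1. Counts were rounded to whole numbers for the 95% Clopper-Pearson interval of each ratio and the Poisson interval of each level. A count of 0 was set to a floor of 3 counts. Symbols came from a RefSeq table of GRCh38.p14 (16183 of 16399 IDs matched). Coordinates on GRCh38, transcript length and GC content came from GENCODE release 29. The length and GC trend was an additive lowess fit (span 0.3, statsmodels 0.14.6) over the 98.8% of expressed genes with a record. It used the longest transcript of each gene. The calculation was tested on simulated counts. With 1 library per group no p-value was computed.

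Besides the 10 targets, PKP2, CTNNB1 and AXIN2 were named whatever their values, and from each pathway list up to 2 genes, those with the log2 ratio farthest from 0 at a mean of at least 5 CPM. LGR5, TCF7L2, the overlapping genes LTO1, SKP1 and SUPT4H1, and the markers were looked up for context. The list members APC2, NKD2, TNKS2, USP34, KREMEN2, DKK1, WNT4, WNT7B and WNT10B were named after their values were seen. The genes and lists were chosen with earlier results of these data known.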

Additional observations from a re-analysis of the deposited data

How the results depend on the processing

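Setting the median or the trimmed mean of the log2 ratios to 0 changed no count of Wnt targets and moved their median log2 ratio from -0.11 to no more than -0.10. With log2(CPM + 1) or log2(CPM + 5) in place of log2 CPM, 0 targets were at least 1.2-fold higher instead of 1, since TCF7 lies at the threshold. Without the genes with fractional counts, an alternative added after the data were seen, 0 were higher as well, because TCF7 was left out. With the length and GC trend removed, 2 were higher (EPHB2 and TCF7) and 2 lower (MYC and TNFRSF19). That trend rests on the longest transcripts, and no other length was tried for it. At 1.1-fold 3 were higher and 4 lower, and at 1.5-fold 0 were higher and 0 lower. With 99% counting intervals 1 target (EPHB2) lay above 1 instead of 2, and 3 (MYC, CCND1 and RNF43) below 1 instead of 4. No alternative to the scale turned the direction of any of the 6 targets whose 95% interval excluded 1, and of the 9 single log2 ratios only those of MYC and EPHB2 left their counting interval, both with the trend removed. No paired analysis was possible because each group has 1 library. Depth limits EPHB3 and LEF1 most.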
